A study of Macaca fascicularis and Mus musculus with 492 samples.

Results

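The genes described here are 5 of the 28797 genes with values in single cells of cynomolgus monkey, namely ATP6V0A4 (gene ID 102118312), ATP6V0D2 (102130688), ATP6V1B1 (102139650), ATP12A (102119167) and AQP3 (102126036). They were chosen from these same data as proton pump and water channel genes of trophectoderm, so their pattern over early lineages is given as a description, with no test. The study profiled single cells by SC3-seq, which reads the 3′ ends of transcripts, and its title sets monkey, mouse and human pluripotency side by side. The 421 monkey cells were 31 embryonic stem cells (ESC) and 390 embryo cells. The ESC were 14 of line CMK6 and 8 of line CMK9, both grown on mouse embryonic feeders with LIF and bFGF, and 9 of CMK6 grown feeder free. The embryo cells were 43 of embryonic day 6 (E06), 35 of E07, 95 of E08, 20 of E09, 46 of E13, 62 of E14, 36 of E16 and 53 of E17. No gene was altered and no agent was tested in the embryos. Preimplantation embryos were dissociated whole. After implantation only the embryonic fragment with epiblast, amnion, hypoblast and yolk sac endoderm was dissected by hand, so that trophoblast was not aimed at from E13 on. The labels name no embryos.

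Vacuolar proton pumps (V-ATPases) move protons across membranes with energy from ATP. A soluble V1 part splits ATP and a membrane V0 part carries the protons, and several of their subunits exist as isoforms, some found in most cells and some in few. The isoforms encoded by ATP6V0A4 and ATP6V1B1 are known from acid-secreting cells of the kidney and the inner ear in human, and that of ATP6V0D2 from osteoclasts in mouse. ATP12A encodes the catalytic subunit of the nongastric proton and potassium pump, and AQP3 a channel for water and glycerol. Trophectoderm is the outer epithelium of the blastocyst, which gives rise to placenta. It pumps ions, and water follows into the blastocyst cavity through aquaporins.

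Values are RPM, a cell's reads of the gene scaled to its own read total, and means are of log2(RPM + 1). Because RPM of different genes are not scaled by length, each gene was compared only with itself across cells. Embryo cells were grouped by clustering, with the 5 genes and the related lists left out, and clusters were called X-like from marker genes. Trophectoderm-like cells formed clusters 10 and 11, with 10 and 12 of 12 trophectoderm markers raised (CDX2, GATA2, GATA3 and KRT18 among them). There were 12 such cells at E06, 19 at E07, 34 at E08 and 8 at E09. Cluster 6, of 31 E06 cells and 1 E07 cell, stayed unnamed, with 1 of 12 trophectoderm and 4 of 8 epiblast markers raised. Cluster 7, of 9 E14 and 2 E16 cells, also stayed unnamed, with 10 of 12 trophectoderm, 3 of 5 syncytiotrophoblast and 4 of 8 extraembryonic mesenchyme markers raised. Cells had 166753 to 4491556 reads (median 1879417) and 7802 to 13307 genes detected. No 2 cells had a correlation of log2(RPM + 1) above 0.948. The median depth of trophectoderm-like cells lay between 1919592 reads at E08 and 2077662 reads at E09, with single cells between 851665 and 4371203 reads at E08 and between 1613372 and 2554670 reads at E09.

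The 5 genes did not share 1 course in trophectoderm-like cells. ATP6V0A4 and ATP6V1B1 were above 10 RPM in every cell from E06 to E09. ATP6V0D2 and AQP3 had their highest log2 mean at E06. ATP12A was above 100 RPM in 2 of 12 E06 cells and in all 34 E08 cells.

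ATP6V0A4 encodes the a4 isoform of the V0 subunit a, the part that lines the proton path. In trophectoderm-like cells its lowest, median and highest values were 300.4, 407 and 709 RPM at E06, 141, 278 and 472 RPM at E07, 55.5, 245 and 562 RPM at E08, and 79.4, 366 and 497 RPM at E09. The ranges of all 4 days overlap, and every cell lay above 10 RPM. Mean levels were 8.67 ± 0.36 at E06, 8.06 ± 0.47 at E07, 7.88 ± 0.62 at E08 and 8.15 ± 0.94 at E09 (log2 scale, SD over cells).

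ATP6V1B1 encodes the B1 isoform of a V1 subunit that takes part in ATP binding. Its lowest, median and highest values were 95.8, 110 and 186 RPM at E06, 31.0, 103 and 416 RPM at E07, 15.1, 63.6 and 198 RPM at E08, and 37.8, 98.9 and 251 RPM at E09. It too was above 10 RPM in each of these cells, with mean levels between 6.02 at E08 and 6.92 at E06 on the log2 scale.

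ATP6V0D2 encodes the d2 isoform of the subunit that joins the V0 part to the central stalk. At E06 every trophectoderm-like cell held between 108 and 352 RPM (median 235). At E07 the cells ran between 0.732 and 350 RPM (median 59.5), at E08 between 0 and 148 RPM (median 15.6), and at E09 between 0.978 and 170 RPM (median 48.9). Its mean level on the log2 scale was 7.80 ± 0.53 at E06, 5.81 ± 2.22 at E07, 3.87 ± 1.91 at E08 and 4.45 ± 2.69 at E09. The spread over cells was therefore narrow at E06 and wide on each later day.

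AQP3 had a lowest, median and highest value of 8.42, 88.0 and 179 RPM at E06, 0, 52.8 and 286 RPM at E07, 0, 14.7 and 159 RPM at E08, and 0, 9.25 and 142 RPM at E09. It was detected in 12 of 12, 18 of 19, 29 of 34 and 5 of 8 cells on those days. Its mean level was 6.22 ± 1.15 at E06, 5.61 ± 2.14 at E07, 3.45 ± 2.33 at E08 and 2.84 ± 3.02 at E09 (log2 scale, SD over cells), with cells at 0 on each of the last 3 days. The highest single cells were at E07, where the cells of cluster 10 had a median of 201.5 RPM.

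ATP12A went the other way. Its lowest, median and highest values were 0.812, 14.9 and 319 RPM at E06, 0, 180 and 857 RPM at E07, 161, 511 and 1337 RPM at E08, and 1.17, 340 and 616 RPM at E09. All 34 cells of E08 were above 100 RPM, and so were 10 of 19 cells of E07, 7 of 8 of E09 and 2 of 12 of E06. The mean level was 3.97 ± 2.58 at E06, 5.80 ± 3.73 at E07, 8.98 ± 0.52 at E08 and 7.49 ± 2.65 at E09 (log2 scale).

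**Figure D1:**
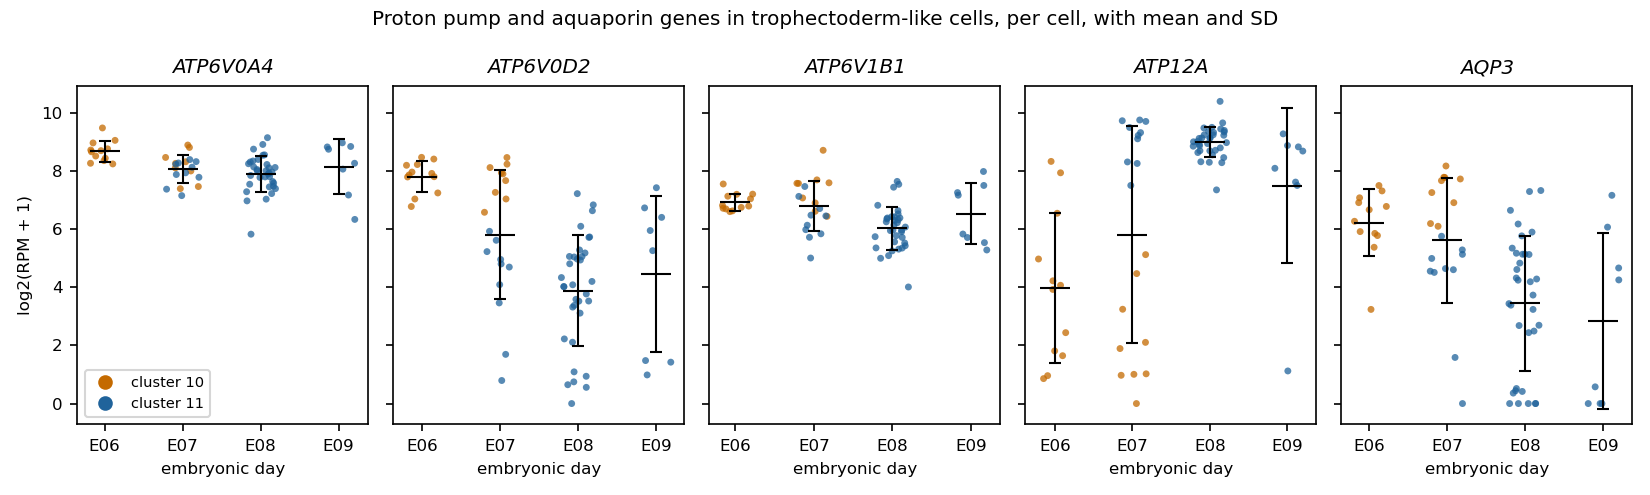
Level of each of the 5 genes, as log2(RPM + 1), in single trophectoderm-like cells by embryonic day; points are cells coloured by cluster, the bar is the mean and the whiskers the SD. ATP6V0A4 stayed at means between 7.88 and 8.67, while ATP12A had a mean of 3.97 at E06 and 8.98 at E08 and AQP3 one of 6.22 at E06 and 2.84 at E09.

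The slope over E06 to E09, fitted with limma on day means of trophectoderm-like cells, was +1.37 per day for ATP12A, -1.20 for ATP6V0D2, -1.23 for AQP3, -0.175 for ATP6V0A4 and -0.195 for ATP6V1B1 (log2 scale). Over the settings tried, the slope of ATP6V0A4 ran between -0.39 and 0.05, so it had no steady sign. The others kept their sign but not their size: ATP12A ran between 0.79 and 2.50 (0.85 without E06, 2.50 without E09), ATP6V0D2 between -1.96 (without E09) and -0.68 (without E06), AQP3 between -1.70 and -0.62 and ATP6V1B1 between -0.45 and -0.11. These slopes are descriptions and carry no test, since the genes were chosen for trophectoderm; of all 8819 genes in that fit, 42 (0.476%) were called at an adjusted p under 0.05. All 34 trophectoderm-like cells of E08 carry the title code MS02 and all 8 of E09 carry MS03, so E08 and its code cannot be told apart. In cells of code MS03 alone, which cover E06, E07 and E09, the slopes were +1.16 for ATP12A, -1.04 for ATP6V0D2, -1.15 for AQP3, -0.152 for ATP6V0A4 and -0.145 for ATP6V1B1.

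At E07 the trophectoderm-like cells fell into both clusters, 9 in cluster 10 with the E06 cells and 10 in cluster 11 with the E08 and E09 cells. The clusters were made without the 5 genes, though on genes of the same cells, so the split is described and not tested. ATP12A ran between 180 and 857 RPM in the 10 cells of cluster 11 and between 0 and 33.7 RPM in the 9 cells of cluster 10. ATP6V0D2 ran between 0.732 and 59.5 RPM in cluster 11 and between 94.3 and 350 RPM in cluster 10. AQP3 ran between 0 and 52.8 RPM in cluster 11 and between 67.3 and 286 RPM in cluster 10. None of these 3 ranges overlap between the clusters. Those of ATP6V0A4 (141 to 333 RPM in cluster 11, 166 to 472 RPM in cluster 10) and ATP6V1B1 (31.0 to 175 RPM and 85.4 to 416 RPM) do. How many of all genes separate the clusters in this way was not counted. The lack of overlap is thus not shown to be particular to these members.

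Trophectoderm markers and labels moved with this split, and their part in it was not tested. The markers were not left out of the clustering and also served to name the clusters, so a shift in their mean may be built in. The mean of the 12 trophectoderm markers ran between 6.83 and 8.50 in E07 cells of cluster 11 (median 7.90) and between 5.33 and 7.23 in those of cluster 10 (median 5.84, log2 scale). The cells of cluster 10 are numbered 40 to 49 under code MS03, and those of cluster 11 are numbered 55 to 68 under MS03 (7 cells) and 44 to 46 under MS08 (3 cells). Whether the numbers stand for different embryos is not in the labels, so embryo and cluster cannot be told apart here.

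Across the 19 cells of E07, the Pearson correlation of log2 levels was -0.77 between ATP6V0D2 and ATP12A, 0.82 between ATP6V0D2 and AQP3 and -0.74 between ATP12A and AQP3. Within the 34 cells of E08, all of 1 cluster and 1 title code, the same pairs gave 0.18, -0.06 and 0.48. At E06 the pair of ATP6V0D2 and ATP12A gave -0.12 over 12 cells. Whether the cells of a day share a library preparation or an embryo is not in the labels, and these values are descriptions.

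High ATP12A and high ATP6V0D2 or AQP3 did occur in the same cell on other days. No E07 cell had both ATP12A and either ATP6V0D2 or AQP3 above 100 RPM, but 2 of 12 cells did at E06, 4 of 34 at E08 and 2 of 8 at E09. All 5 genes were above 10 RPM in 6 of 12, 9 of 19, 13 of 34 and 3 of 8 cells at E06, E07, E08 and E09. None of the 73 cells lacked all 5 at that level.

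**Figure D2:**
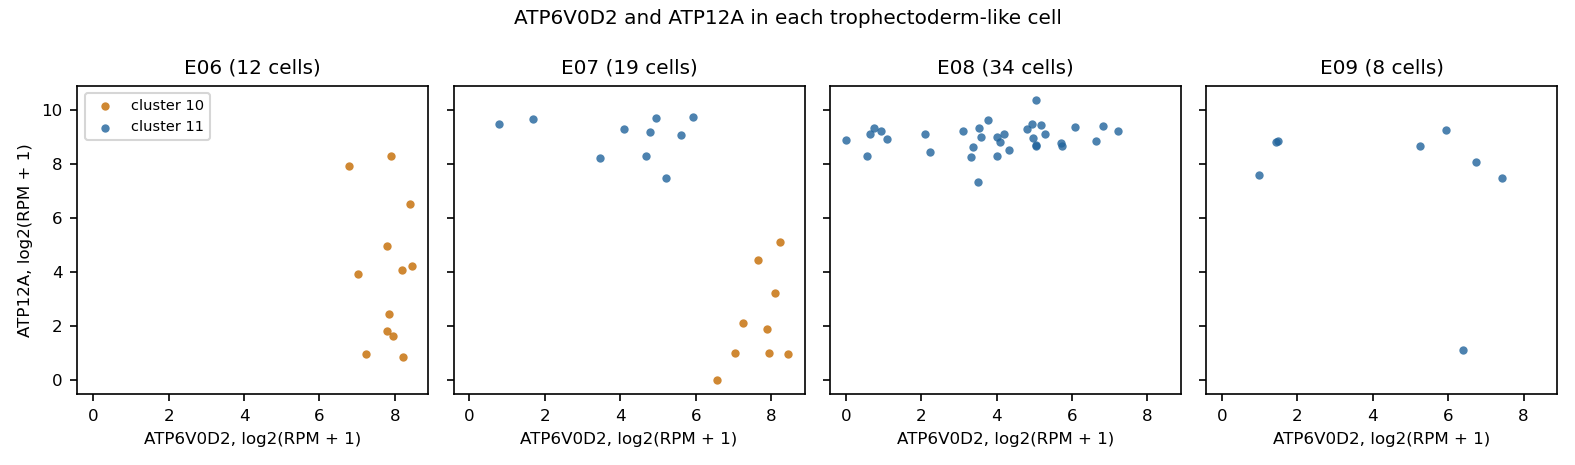
ATP6V0D2 (x) and ATP12A (y), as log2(RPM + 1), in each trophectoderm-like cell, 1 panel per day from E06 to E09, points coloured by cluster. At E07 the 10 cells of cluster 11 (ATP12A at 180 RPM or more) and the 9 cells of cluster 10 (ATP12A at 33.7 RPM or less) lie in opposite corners, while the E08 cells spread along ATP6V0D2 with ATP12A high throughout.

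Compared with the other early lineages, ATP6V0A4 was higher in trophectoderm-like cells with few exceptions. At E07 its lowest trophectoderm-like cell had 141 RPM, and none of 5 epiblast-like or 10 hypoblast-like and endoderm-like cells reached it. At E08 the lowest trophectoderm-like cell had 55.5 RPM, reached by 1 of 24 epiblast-like and 0 of 37 hypoblast-like and endoderm-like cells. At E09 it had 79.4 RPM, reached by 0 of 5 and 1 of 7. The single E08 epiblast-like cell (124 RPM) had a trophectoderm marker mean of 6.45, and the single E09 hypoblast-like and endoderm-like cell (112 RPM) one of 7.35, against medians of 3.71 and 4.26 in their classes. Their class names rest on the cluster, and the part of mixed or doublet cells was not tested.

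ATP12A separated the classes without overlap at E08 only. There the lowest trophectoderm-like cell had 161 RPM, and the highest epiblast-like and hypoblast-like or endoderm-like cells 97.6 and 59.5 RPM. At E07, where cluster 10 holds trophectoderm-like cells down to 0 RPM, the mean level was 5.80 ± 3.73 in trophectoderm-like cells, against 3.72 ± 2.57 in hypoblast-like and endoderm-like and 1.29 ± 1.35 in epiblast-like cells (log2 scale). Those groups overlap.

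ATP6V1B1 was also present in epiblast-like cells of the blastocyst. Trophectoderm-like cells had mean levels of 6.79 ± 0.87, 6.02 ± 0.74 and 6.53 ± 1.05 at E07, E08 and E09, against 4.59 ± 0.38, 2.88 ± 1.58 and 3.73 ± 1.19 in epiblast-like and 1.35 ± 1.87, 0.58 ± 0.99 and 1.46 ± 1.67 in hypoblast-like and endoderm-like cells (log2 scale). It was above 10 RPM in 5 of 5, 11 of 24 and 4 of 5 epiblast-like cells of those days, and in 3 of 10, 2 of 37 and 2 of 7 hypoblast-like and endoderm-like cells. The lowest trophectoderm-like cell was reached by 1 of 5 epiblast-like and 0 of 10 hypoblast-like and endoderm-like cells at E07 (31.0 RPM). At E08 (15.1 RPM) it was reached by 6 of 24 and 1 of 37, and at E09 (37.8 RPM) by 0 of 5 and 0 of 7.

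ATP6V0D2 and AQP3 separated trophectoderm-like cells less clearly at E08 and E09. AQP3 at E09 had a mean level of 2.84 ± 3.02 in trophectoderm-like cells, against 2.86 ± 1.89 in hypoblast-like and endoderm-like cells and 2.13 ± 1.79 in epiblast-like cells. ATP6V0D2 at E08 had 3.87 ± 1.91 in trophectoderm-like, 1.42 ± 1.10 in epiblast-like and 1.41 ± 1.20 in hypoblast-like and endoderm-like cells (log2 scale). The AQP3 differences at E09 lie within the spread between cells and the ATP6V0D2 differences at E08 exceed it, and the cell ranges overlap for both genes on every day from E07 on.

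At E06 the label of trophectoderm did not hold for AQP3. AQP3 had a mean level of 6.22 ± 1.15 in the 12 trophectoderm-like cells and 6.29 ± 1.45 in the 31 cells of the unnamed cluster 6, with 30 of those 31 at or above the lowest trophectoderm-like cell of 8.42 RPM. ATP6V0D2 had 7.80 ± 0.53 and 6.08 ± 1.90, ATP6V0A4 8.67 ± 0.36 and 5.99 ± 2.11, and ATP6V1B1 6.92 ± 0.29 and 4.93 ± 1.55 in trophectoderm-like and cluster 6 cells (log2 scale). The lowest E06 trophectoderm-like cell was reached by 15 of 31 cluster 6 cells for ATP6V0D2 (108 RPM), by 2 for ATP6V0A4 (300.4 RPM) and by 1 for ATP6V1B1 (95.8 RPM). ATP12A was low in cluster 6, at 0.96 ± 1.05, against 3.97 ± 2.58 in trophectoderm-like cells. The trophectoderm marker mean of cluster 6 had a median of 3.16 and a highest cell of 5.18, against 6.29 and 7.20 in E06 trophectoderm-like cells, so 4 of the 5 genes had means of 4.93 or more in cells with low levels of those markers.

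**Figure D3:**
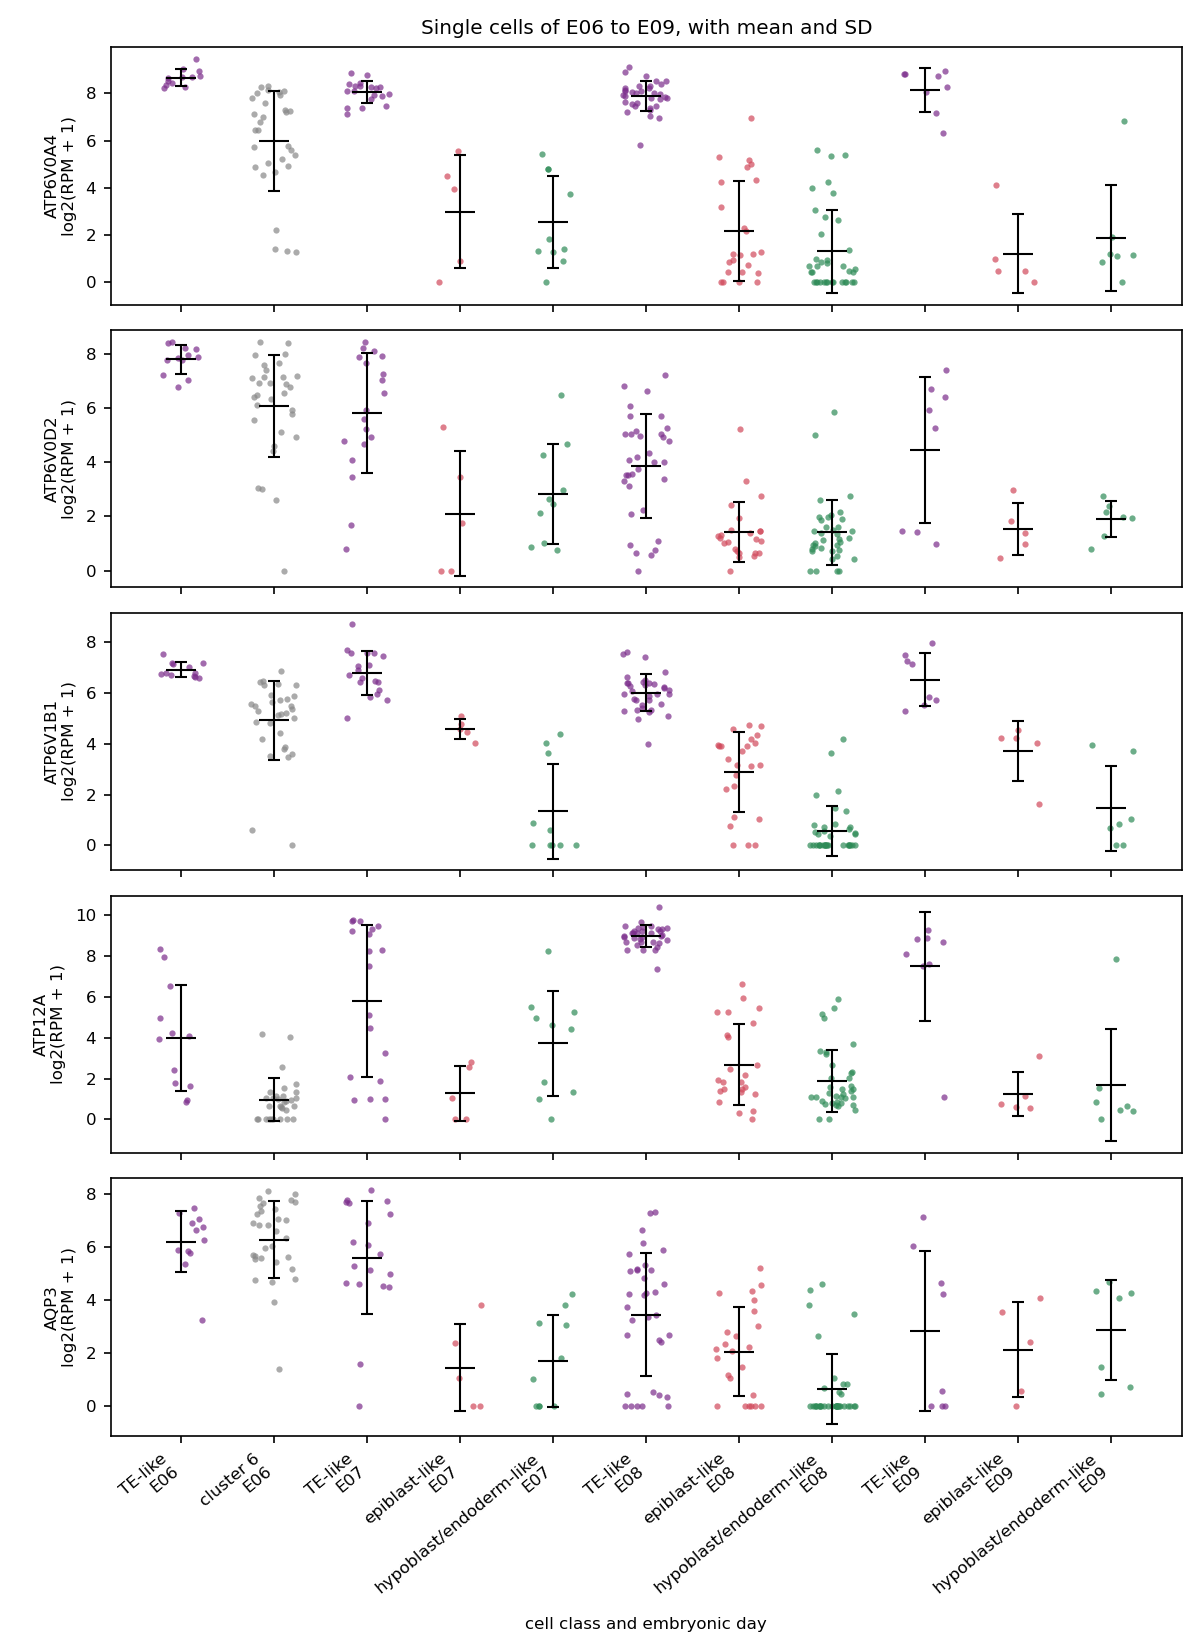
The 5 genes, 1 row each, as log2(RPM + 1) in single cells of E06 to E09 by class and day, with mean and SD; TE-like stands for trophectoderm-like. AQP3 lies equally high in trophectoderm-like cells and cluster 6 at E06 (6.22 and 6.29), and at E09 it has about the same mean in trophectoderm-like and hypoblast-like and endoderm-like cells (2.84 and 2.86).

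After implantation mean levels of the genes were low in the sampled tissue, with cluster 7 as the exception for ATP12A and ATP6V0A4. The 9 cells of cluster 7 at E14 had a lowest, median and highest ATP12A value of 0, 29.0 and 316 RPM and 3 cells above 100 RPM. ATP6V0A4 there had 0, 27.1 and 100.4 RPM. ATP6V0D2 reached 3.88 RPM at most, ATP6V1B1 5.17 RPM, and AQP3 was detected in 0 of 9 cells, which allows a share of up to 33.3% of such cells. The trophectoderm marker mean of these cells had a median of 6.39, against 8.08 in E09 trophectoderm-like cells. Cluster 7 cells came from a dissection that did not aim at trophoblast, and the place they came from is not in the labels.

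In gastrulating-like cells (E13 to E17) and extraembryonic mesenchyme-like cells (E13 and E14), mean levels stayed at 1.70 or less for each of the 5 genes. ATP6V0A4 and ATP12A were detected in 0 of 30 extraembryonic mesenchyme-like cells of E13 and E14. The highest value in gastrulating-like cells was 147 RPM of ATP12A in 1 E13 cell, whose trophectoderm marker mean was 6.67 against a class median of 3.65. AQP3 was detected in 5 of 18 gastrulating-like cells of E17, with up to 62.5 RPM.

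Across the 25 class and day groups of at least 5 cells, ESC cultures included, ATP6V0A4 and ATP6V1B1 had their 4 highest means in the 4 trophectoderm-like days. ATP6V0D2 ranked cluster 6 second, ATP12A ranked cluster 7 of E14 above E06 trophectoderm-like cells, and AQP3 ranked cluster 6 first. For none of the 5 genes did 2 neighbours in this order differ by more than the larger of their SDs over cells. The annotation places ATP6V0A4 over TMEM213 and ATP6V1B1 over the pseudogene LOC102139260, and no source at hand says whether counting used strand. TMEM213 itself had medians of 0.975 to 2.30 RPM in trophectoderm-like cells.

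The genes whose group means were most like each member, of 11774 compared over the 25 groups, were SLC7A4 (r = 0.97), SLC12A3, LY6G6C, HSD17B1 and EQTN for ATP6V0A4, and GPRC5A (r = 0.97), CAMK1, NGEF, SMIM1 and LOC102131291 for ATP6V1B1. For ATP12A they included DLX3 (r = 0.94), PTPN3, GATA2 and LOC102123755, of which DLX3 and GATA2 were among the trophectoderm markers used to name clusters. For ATP6V0D2 they were ESRRB (r = 0.93), C9H10orf99, LOC102119362, TMEM45B and ALOX5AP, and for AQP3 C9H10orf99 (r = 0.96), LOC102144516, ESRRB, EDN3 and TMEM45B. ATP6V0D2 and AQP3 thus shared 3 of their 5 nearest genes, and no other pair shared any. Among the members, r ran between 0.53 (ATP12A and AQP3) and 0.91 (ATP6V0A4 and ATP6V1B1, and ATP6V0D2 and AQP3). Groups share title codes and days, so these are descriptions.

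The common isoforms and related pumps were measured beside the members. ATP6V0D1, the common d isoform, had means of 6.35, 5.74, 6.68 and 6.19 in trophectoderm-like cells at E06, E07, E08 and E09. ATP6V1B2, the common B isoform, had means of 9.36, 8.51, 8.21 and 8.02. The other a isoforms ATP6V0A1 and ATP6V0A2 had means of 4.03 and 4.22 at E06 and 2.84 and 3.18 at E09, and TCIRG1 1.72 at E06 and 2.98 at E09. ATP4A, the gastric counterpart of ATP12A, was detected in 1 of 12 E06 and 2 of 34 E08 cells, at 9.37 RPM or less, and in none of E07 and E09. The sodium pump subunits ATP1B1 and ATP1B3 had means of 6.57 to 7.16 and 7.27 to 7.81 over the 4 days. AQP11, an aquaporin of intracellular membranes, had means of 3.05, 2.69, 5.32 and 4.66, and AQP1 was detected in none of these cells, while extraembryonic mesenchyme-like cells of E14 had a mean of 2.87 (log2 scale throughout).

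In the trophectoderm-like day trend over 13 settings, ATP6V1B2 was called in 4 and AQP11 in 2, each keeping its sign in all 13. None of the common isoforms, related pumps and aquaporins above was called in the main fit of that trend. In the same limma fit, 0 of 9 tested genes of the V1 list, 0 of 9 of V0 and accessory subunits, 0 of 3 of sodium and proton P-type pumps, 0 of 1 of aquaporins, 0 of 5 of ion and acid-base transport and 0 of 16 of tight junctions and polarity were called. At an unadjusted p under 0.05 the counts were 3, 0, 0, 1, 2 and 4, against 15.8% of all genes tested. The 3 V1 genes were ATP6V1B2, ATP6V1D and ATP6V1F, with slopes of -0.43, -0.45 and -0.30 per day, and the aquaporin was AQP11 with 0.75. ATP6V1D and ATP6V1F were picked for that p. List medians were 0.01 for V1, -0.15 for V0 and 0.07 for tight junctions per day, against 0.01 over all genes.

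**Figure D4:**
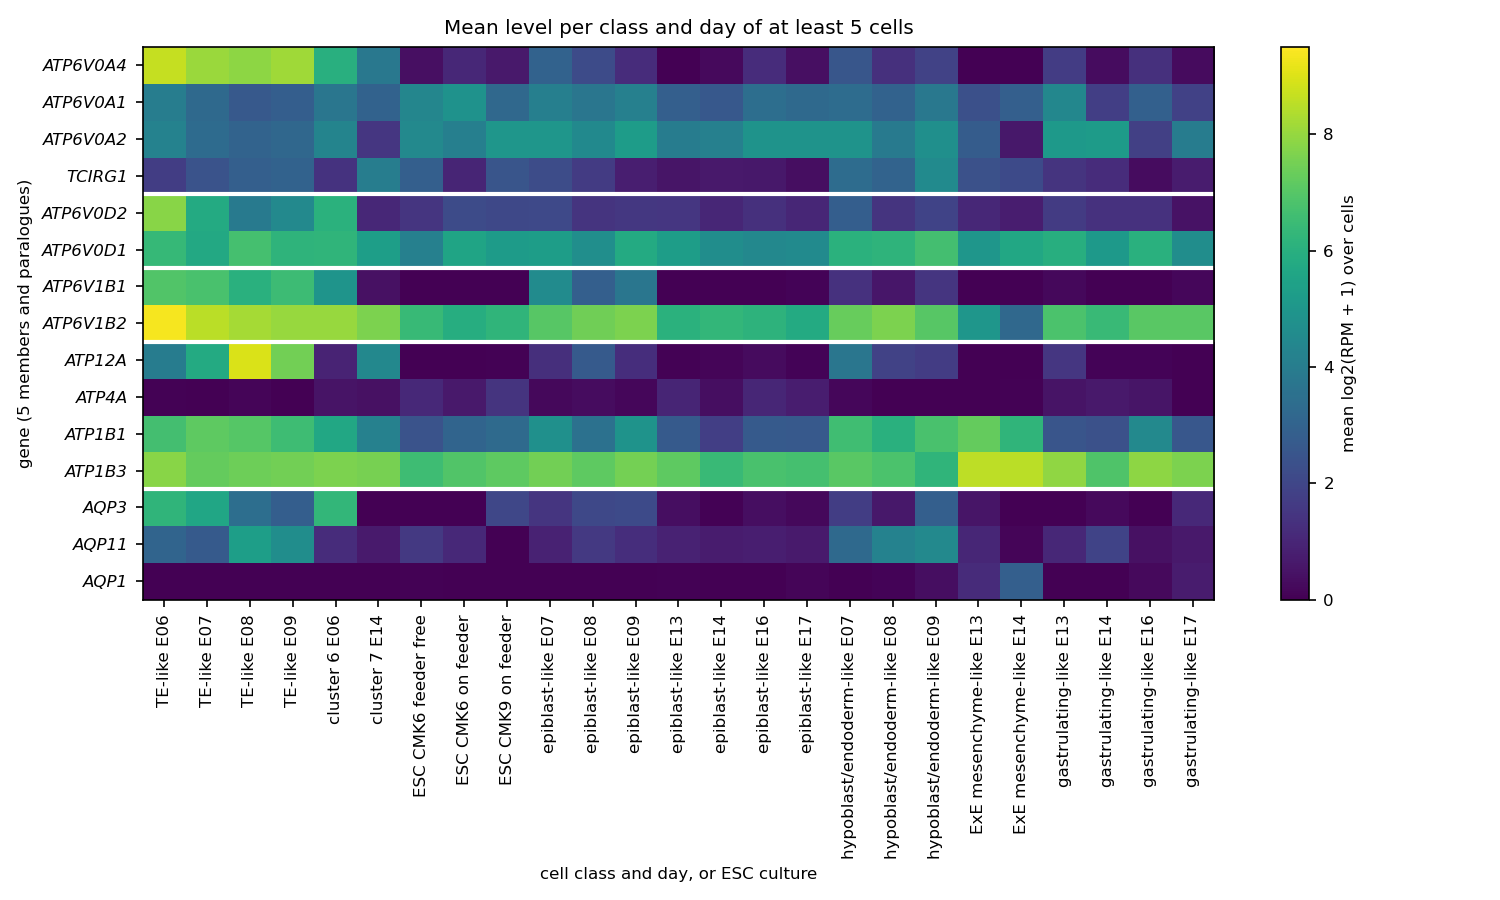
Mean log2(RPM + 1) of the 5 members and paralogues of theirs in each class and day of at least 5 cells and in the 3 ESC cultures; white lines part the families, and TE-like and ExE stand for trophectoderm-like and extraembryonic. ATP6V0D1 has means of 4.14 to 6.68 and ATP6V1B2 of 3.21 to 9.36 over all columns, whereas ATP6V0A4 and ATP6V1B1 are brightest in the trophectoderm-like columns and intermediate in cluster 6.

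The epiblast comparison asks how the genes differ between postimplantation and preimplantation epiblast-like cells. The genes were chosen for trophectoderm of the blastocyst with earlier results of these cells known. A fall from early to late may thus be built into that choice in part, and the tests are not independent of it. ATP6V1B1, AQP3 and ATP12A were lower in late (E13, E14, E16 and E17) than in early (E07, E08 and E09) epiblast-like cells. Day means were the units, 4 late against 3 early, tested with limma's moderated test over all genes. With the usual filter (a mean of at least 2 in at least 3 days), ATP6V1B1 was the only member among the 9897 genes tested, and it passed through its early days alone. All 5 genes were therefore read from the fit without a filter, of 23677 genes, in which 9.24% were called lower in late cells. In that fit 3 of the 5 members were called lower, 0 higher. This count is a description and no test of the members as a set, because of how they were chosen and because the unfiltered genes include those with low means. The filtered fit, which leaves out genes with low means, called 24.2% of its genes lower.

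ATP6V1B1 had means of 0, 0.02, 0.03 and 0.09 at E13, E14, E16 and E17, against 4.59, 2.88 and 3.73 at E07, E08 and E09 (log2 scale). It was detected in 4 of 106 late cells, at 2.21 RPM or less, and in 31 of 34 early cells. The late minus early difference was -3.70 ± 0.44 (SE), with an adjusted p of 0.00356, and 0.00109 to 0.0199 over the other settings tried. The size moved with the pseudocount, since late cells were nearly all at 0: it was -6.66 with a pseudocount of 0.1 and -1.29 with one of 10. The AQP3 and ATP12A differences below likewise ran between -3.47 and -0.45 and between -3.56 and -0.46. The day means of the 2 groups do not overlap, and how many of all genes separate in this way was not counted.

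AQP3 had means of 0.34, 0.06, 0.35 and 0.21 on the late days, against 1.45, 2.05 and 2.13 on the early days, a difference of -1.64 ± 0.23 (limma adjusted p = 0.00585, 0.0037 to 0.0363 over the other settings). ATP12A had means of 0.04, 0.13, 0.27 and 0.10 on the late days, against 1.29, 2.69 and 1.24, a difference of -1.61 ± 0.36 (limma adjusted p = 0.0262). Day means of both genes do not overlap between late and early. The share of all genes whose day means separate so was not counted. Of all genes in that limma fit, 30.1% had an unadjusted p under 0.05, so the lack of overlap is not shown to be particular to these members.

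The call of ATP12A moved with the settings and with single cells. Its limma adjusted p ran between 0.00353 and 0.125 over the settings. Without E13, E14, E16 or E17 that adjusted p was 0.0703 to 0.0862, with differences of -1.57 to -1.65. Without E07, E08 or E09 the limma adjusted p was 0.0360, 0.00544 and 0.0330, with differences of -1.83, -1.13 and -1.86. Of 34 early epiblast-like cells, 6 had a trophectoderm marker mean at or above that of the lowest trophectoderm-like cell (4.58). Without those 6 the limma difference was -1.13 for ATP12A (adjusted p = 0.0644), -3.58 for ATP6V1B1 (0.00522) and -1.50 for AQP3 (0.0147). The median trophectoderm marker mean was 1.97 to 2.46 on late days and 3.42 to 3.76 on early days, and its part in these differences was not tested beyond leaving out those cells. Title codes also differed between the groups. Only MS08 held both, with 9 E14 and 16 E16 cells and 2 E07 cells. Within it the means were 0.07, 0.05 and 4.84 for ATP6V1B1, 0.17, 0.30 and 3.099 for AQP3, and 0.23, 0.29 and 1.41 for ATP12A at E14, E16 and E07 (log2 scale), too few early cells for a test. With at least 5 cells a unit no code held both, so that code and group cannot be told apart in the test.

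ATP6V0A4 had means of 0, 0.25, 1.20 and 0.38 on the late days, against 2.98, 2.17 and 1.21 on the early days, a difference of -1.66 ± 0.49 that did not pass (limma adjusted p = 0.0613, and 0.0209 to 0.176 over the other settings). E16 (1.20) and E09 (1.21) nearly met. ATP6V0D2 had medians of 1.02 to 2.06 RPM on late days and 1.25 to 2.42 RPM on early days, and a difference of means of -0.46 ± 0.32 (limma adjusted p = 0.391), with overlapping days.

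In the filtered fit, 24.2% of genes were called lower and 13.3% higher in late cells. Of the V1 list, 0 of 9 tested genes rose and 3 fell (ATP6V1B2 by 1.28 ± 0.23, ATP6V1D by 1.61 and ATP6V1E1 by 0.94), and of V0 and accessory subunits 1 of 9 rose (ATP6V0E2) and 3 fell (ATP6V0E1, ATP6AP1 and ATP6AP2). The share that fell was thus 3 of 9 in each list, near the background. Of the P-type pumps 4 of 8 rose and 2 fell, ATP1B1 by 1.95 ± 0.44 and ATP1B3 by 0.62 ± 0.22. ATP1B3 was no longer called after quantile normalization (adjusted p = 0.149), nor were ATP6V1E1 and ATP6AP1. Of ion and acid-base transport 4 of 8 rose and 3 fell, and of tight junctions and polarity 2 of 13 rose and 3 fell; quantile normalization made these 5 and 2, and 2 and 2, with SLC4A11 and EZR losing and SLC26A4 gaining a call. No aquaporin of the list passed the filter. Genes of the lists other than paralogues are named here after their values were seen. List medians were -0.32 for V1, -0.53 for V0, 0.50 for P-type pumps, 1.16 for ion transport and -3e-04 for tight junctions, against -0.26 over all genes. Quantile normalization, which took the median over all genes to -0.0042, gave -0.11 for V1, -0.17 for V0 and 0.32 for tight junctions.

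Among ESC, ATP6V0D2 was detected at low levels in 30 of 31 cells and each of the other 4 members in 8 or fewer. ATP6V1B1 was detected in 0 of 31 ESC, which allows a share of up to 21.4% in the 14 CMK6 cells on feeders and more in the smaller cultures. ATP12A was detected in 2 of 31 ESC at 0.387 RPM or less. AQP3 was detected in 0 of 14 CMK6 cells on feeders and 0 of 9 feeder free, and in 5 of 8 CMK9 cells, with 29.1 RPM at most and a mean of 2.04 ± 1.88. Only 1 culture of CMK9 was profiled, so line and culture cannot be told apart. ATP6V0A4 was detected in 8 of 31 ESC, with up to 34.1 RPM.

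ATP6V0D2 was detected in 14 of 14 CMK6 cells on feeders, 8 of 9 feeder free and 8 of 8 CMK9 cells, at medians of 2.39, 1.43 and 3.58 RPM, against 19 of 24, 20 of 25, 20 of 22 and 23 of 35 epiblast-like cells of E13, E14, E16 and E17. At 150000 reads per cell it was detected in 7 of 14, 3 of 9 and 3 of 8 ESC. The epiblast-like cells of E13, E14, E16 and E17 then had it in 8 of 24, 3 of 25, 6 of 22 and 8 of 35. Detection was thus lower in both at that depth, and the part of depth in the difference was not tested.

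Between the 3 ESC cultures and the 4 late epiblast-like days no member was called. The usual filter left none of the 5, and without a filter 0.477% of 23685 genes were called. The differences, ESC minus late epiblast-like, were 0.67 ± 0.33 for ATP6V0D2, 0.44 ± 0.47 for AQP3, 0.25 ± 0.30 for ATP6V0A4, -0.10 ± 0.05 for ATP12A and -0.04 ± 0.03 for ATP6V1B1 (log2 scale, SE; limma adjusted p between 0.366 and 0.695; 0 of 5 members and 3939 of all genes had an unadjusted p under 0.05). The sign of the AQP3 difference rests on 1 culture, since without CMK9 it was -0.24, as it was with units of at least 10 cells. Code MS11 held both feeder-free CMK6 (9 cells) and E17 epiblast-like cells (8), with means of 1.47 and 1.44 for ATP6V0D2, 0.41 and 0.71 for ATP6V0A4, 0 and 0.21 for AQP3, 0 and 0.21 for ATP6V1B1, and 0 in both for ATP12A. A limma fit with the code as a term, whose ESC difference rests on that pair, called none of the 5 (adjusted p of 0.393 or more, with ATP6V1B1 alone under 0.05 unadjusted at -0.21) and 516 of all genes. The differences of ATP6V0A4 (-0.30) and AQP3 (-0.21) had the other sign there. In the filtered fit, where 7.14% of genes were called higher and 1.52% lower in ESC, 1 gene each of the V0 (ATP6V0E1), P-type pump and ion transport (CA2) lists rose and none of the 6 lists had a member fall. None of those 3 was called after quantile normalization (adjusted p = 0.0546 for ATP6V0E1 and 0.0982 for CA2), which in turn called ATP6V1H lower in ESC (0.0489 against 0.104).

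**Figure D5:**
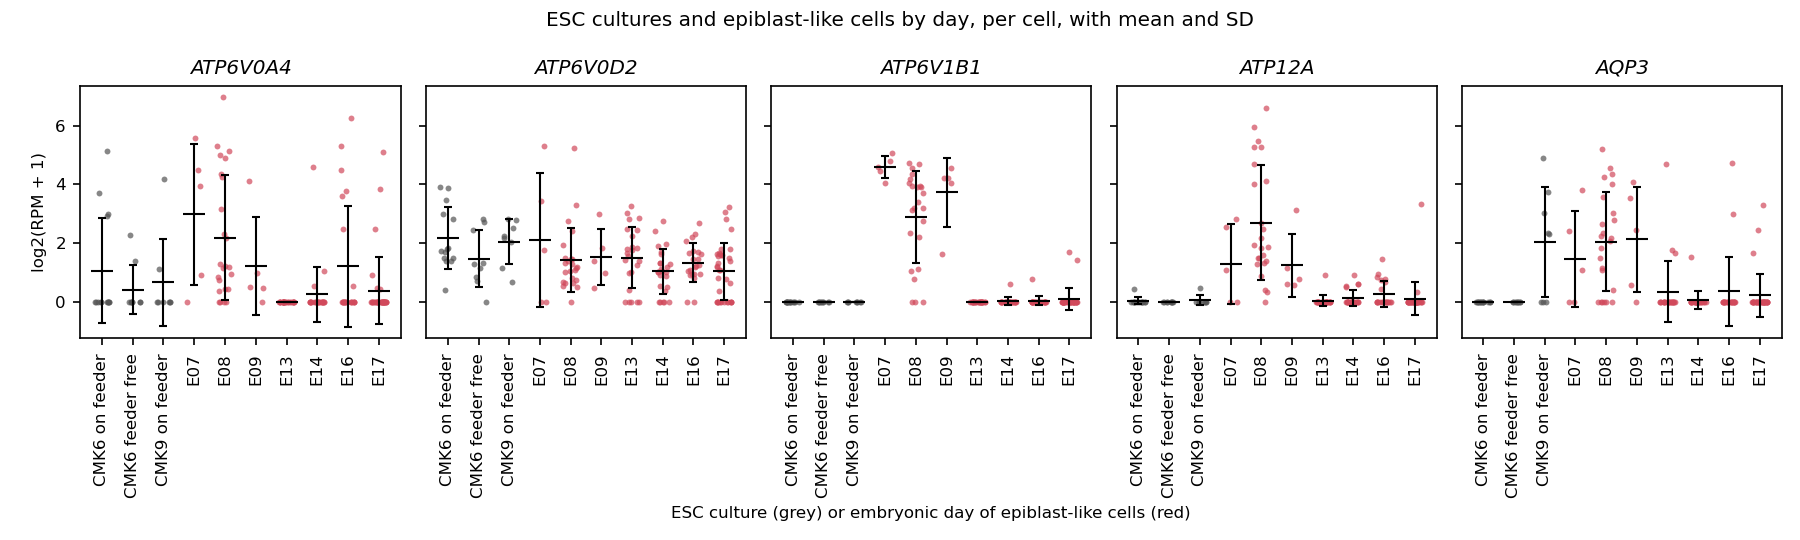
The 5 genes as log2(RPM + 1) in single ESC by culture (grey) and in single epiblast-like cells by embryonic day (red), with mean and SD. ATP6V1B1 has means of 2.88 to 4.59 at E07 to E09 and of 0.09 or less from E13 on and in ESC, and AQP3 in ESC is seen in CMK9 cells alone.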

How the data were processed

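Single monkey cells were profiled by SC3-seq. The deposited values are RPM for each gene in each cell, which the authors scaled to the cell's read total on the macFas5 build, per the file headers. The submitters' processing notes name cutadapt 1.3, TopHat 1.4.1 and Cufflinks 2.2.0 without roles. Of 29095 rows, 298 without values were left out. Of 14758 LOC names, 3296 were given symbols by gene ID from a RefSeq table of a newer assembly, used for names and neighbouring genes only. No cell was removed and no doublet caller was run. The mouse table was not used.

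Embryo cells were clustered (scanpy 1.11.5, Python 3.11.15) on 2000 variable genes, 12 components, 10 neighbours and Leiden resolution 1, without the 5 members and the listed genes. A cluster was named where at least 3 markers, and over 50% of the list, were raised by 1 on the log2 scale. Raised markers also needed a mean of at least 3. No name was given where another list had more genes among the 10 leading genes of the cluster. In cluster 7 the leading genes held HSD3B1, a syncytiotrophoblast marker, and no trophectoderm marker. These names are rebuilt and may differ from the study's. Means of log2(RPM + 1) per class and day of at least 5 cells were tested with limma 3.58.1 (R 4.3.3, intensity trend) and Benjamini-Hochberg adjustment over all genes tested, at 0.05. A gene entered a fit when 3 or more units had a mean of 2 or more, unless stated. The unit is the day or culture. The labels name no embryos, so p-values measure the spread between days or cultures only. One read is worth a known RPM step in nearly all values (at least 99.7% whole within 0.1 read), and limits for 0 cells use 3 counts and cover counting error only. Cells were also thinned to 150000 reads. Other pseudocounts, filters, scalings, clusterings and single days left out were tried. The limma steps were tested on simulated data. The members, their paralogues, nearest genes and lists were named by rule, and were chosen with earlier results of these data known. Some genes that the rule names are not reported here.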

Additional observations from a re-analysis of the deposited data

Results flagged for a closer look

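Single cells that stood far from the rest of their class and day were looked for in 42 groups of 5 to 10 cells, and 12 groups held one, by the gap to the nearest other cell as a share of the range. The limit is set so that chance passes it in about 1 in 20 groups of normally spread values, which does not hold for groups mostly at 0; in 3 of the 12 all other cells were at 0, so that a single detected cell passes. All values are log2(RPM + 1).

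One trophectoderm-like cell of E09 had an ATP12A level of 1.12, against a group median of 8.38 over 8 cells. The same cell had 305 RPM of ATP6V0A4, 83.4 RPM of ATP6V0D2, 142 RPM of ATP6V1B1, 18.0 RPM of AQP3 and a trophectoderm marker mean of 7.14. A single hypoblast-like and endoderm-like cell of E09 had an ATP12A level of 7.86 and an ATP6V0A4 level of 6.82, against medians of 0.67 and 1.14 over 7 cells. Its trophectoderm marker mean was 7.35. One gastrulating-like cell of E13 had an ATP12A level of 7.21 and another an ATP6V1B1 level of 1.303, against medians of 0 over 6 cells.

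Among 5 epiblast-like cells of E09, one had an ATP6V0A4 level of 4.12 (median 0.48), one an ATP12A level of 3.13 (median 0.76) and one an ATP6V1B1 level of 1.63, below a median of 4.21. In cluster 7 at E14, 1 of 9 cells had an ATP6V1B1 level of 2.62. Among 8 CMK9 ESC, one had an ATP6V0A4 level of 4.20 and one an ATP12A level of 0.47, and among 10 gastrulating-like cells of E16 one had an ATP12A level of 0.83. The medians of these groups were 0.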

How the results depend on the processing

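The number of genes called moved widely with the processing, most of all in the trophectoderm-like day trend with its 4 day means. There 42 genes were called, against 35 with a pseudocount of 0.1, 1 with a pseudocount of 10, 0 with the log2 of the mean RPM, 0 without a filter (2963 at an unadjusted p under 0.05), 1 after quantile normalization, 829 with units of at least 10 cells, 250 in title code MS03 and 1 (without E06) to 829 (without E09) with single days left out. Late against early epiblast-like called 3715 genes, against 1268 with units of at least 10 cells and 2956 to 3703 with a day left out. Higher calls made up 35.56% of these, 51.78% after quantile normalization and 49.14% with the log2 of the mean RPM. ESC against late epiblast-like called 855, against 431 with the log2 of the mean RPM, 113 without a filter, 429 after quantile normalization, 28 with units of at least 10 cells and 254 (without CMK9) to 770 (without feeder-free CMK6) with 1 day or culture left out. It called 258 without CMK6 on feeders and 271 without E14. Higher calls made up 82.46%, 55.24% after quantile normalization and 67.29% with the log2 of the mean RPM. The cause of these shifts was not tested. ATP6V1B1 and AQP3 were called lower in late cells under all 14 settings of the fit without a filter, ATP12A under 7 and ATP6V0A4 under 2. Fits without a filter combined with another choice, the fits without 6 epiblast-like cells the slopes by E07 cluster and the ESC fit with title code as a term were added after seeing the data. Clustering at resolution 1.5 gave the same counts. Thinning left 122 of 125 levels within 1 SD; ATP6V0D2 moved to 0 in epiblast-like E09, 0.97 in hypoblast-like and endoderm-like E09 and 0.21 in gastrulating-like E14. The planned test on recovered read counts was not run. No paired analysis was possible because the labels number single cells and no replicate number is shared across groups; title codes are shared in part, and their values stand beside the results.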
